A study of Mus musculus with 6 samples.

Results

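The GIMAP GTPases are a family of small GTP-binding proteins made mainly in lymphocytes, and the transcripts of its mouse genes are described here in activated CD4+ T cells in which DYRK1A was targeted by shRNA or by the kinase inhibitor harmine. Members were taken as every row of the expression table whose gene symbol starts with Gimap and a number, which gave 8 genes (*Gimap1*, *Gimap3*, *Gimap4*, *Gimap5*, *Gimap6*, *Gimap7*, *Gimap8* and *Gimap9*) of 23420 in the table. All 8 passed the filter on low counts, as did 10607 genes in all. RNAseq was performed on 6 libraries in 3 groups of 2. The first group received *Dyrk1a* shRNA, the second received control (scrambled) shRNA followed by 3.7 µM harmine, and the control group received control shRNA without harmine. All 3 groups were CD4+ T cells, magnetically enriched from the spleens of 12-week-old Balb/c mice, activated on plates coated with anti-CD3 and anti-CD28, transduced with shRNA virus 24 hr later, fed with IL-2-containing medium after a further 24 hr and harvested 48 hr after that. The paper describes naive CD4+ T cells stimulated under Th0 conditions, with no cytokines that drive a lineage. It states that Th0 cultures received no added IL-2, which differs from the medium named above. Harmine is a plant alkaloid that inhibits DYRK1A, a kinase that phosphorylates NFAT transcription factors among other proteins. Control cells thus also carry a virus and had been activated, and no uninfected or resting cells are among the 6 libraries. The labels do not say whether the replicates of a group came from separate cultures or animals. The p-values thus rest on the spread between these libraries, which may be technical. The test shares its estimate of spread across genes, so a gene's p does not follow its own replicates alone. Neither the labels nor the methods name the *Dyrk1a* hairpin behind these libraries.

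GIMAP proteins share a GTP-binding domain of the AIG1 type, related to those of septins and dynamins, and most are anchored to intracellular membranes. They are best known for keeping lymphocytes alive: loss of Gimap5 causes lymphopenia in mice and in BB rats, and loss of Gimap1 in mice depletes mature T and B cells. The genes lie side by side in 1 cluster, here given in the GRCm38 (mm10) build with GENCODE M21 gene bounds on chromosome 6. *Gimap8* (48647234 to 48660875, plus strand) is the first, followed by *Gimap9* (48676129 to 48679114, plus) and *Gimap4* (48684549 to 48692060, plus). *Gimap6* (48701582 to 48708225) lies on the minus strand. *Gimap7* (48718621 to 48724636), *Gimap1* (48739054 to 48743795) and *Gimap5* (48746197 to 48754210) are on the plus strand. *Gimap3* (48764464 to 48770851) closes the cluster on the minus strand.

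*Gimap3* and *Gimap5* are close paralogs, both reported to bind BCL2-family proteins, and their coding sequences resemble each other enough to matter for how reads are assigned. In GENCODE M21 transcripts, the coding sequences of 906 bases (*Gimap3*) and 927 bases (*Gimap5*) aligned over 905 bases, of which 795 (87.8%) were identical, with 1 identical run of 140 bases. The 200 bases around that run are shown for both genes, 5′ to 3′ along the transcript, because a short read from within the run could come from either gene. Capitals mark the 4 positions at which the genes differ, and each stretch lies within 1 exon. The *Gimap3* stretch covers coding bases 145 to 344 (chr6:48765651-48765850, minus strand, GRCm38) and the *Gimap5* stretch covers coding bases 157 to 356 (chr6:48752654-48752853, plus strand).
Gimap3: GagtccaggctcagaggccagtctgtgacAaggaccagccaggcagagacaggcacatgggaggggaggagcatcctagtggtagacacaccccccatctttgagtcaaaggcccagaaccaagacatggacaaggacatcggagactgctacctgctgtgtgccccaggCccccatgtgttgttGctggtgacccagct
Gimap5: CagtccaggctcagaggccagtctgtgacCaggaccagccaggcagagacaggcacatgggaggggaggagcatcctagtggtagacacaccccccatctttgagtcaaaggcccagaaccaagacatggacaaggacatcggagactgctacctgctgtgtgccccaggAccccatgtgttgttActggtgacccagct

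The deposited expected counts carry a trace of this sharing. RSEM, the program that made them, splits a read that fits several genes between them, and neither gene alone had a whole number of counts in any library. Their sum was whole in 6 of 6 libraries, at 2617 and 3980 counts with *Dyrk1a* shRNA, 3866 and 4556 with harmine and 1488 and 1225 in control cells. *Gimap5* took 3.93% and 3.93% of that sum with *Dyrk1a* shRNA, 4.71% and 4.02% with harmine and 6.24% and 4.16% in control cells. How many reads fit both genes is not known from these values, so the level of *Gimap5* may depend on how such reads were assigned, and the sum of both genes was tested beside the single genes. RefSeq also lists Gimap5 as an older name of *Gimap3*, and the rows are named here as the table names them. *Gimap1* had fractional counts in every library too, with no partner identified, and overlaps the antisense gene *Gimap1os*, which has no row of its own.

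Sequencing was shallow and uneven: total expected counts were 2678895 and 3274103 with *Dyrk1a* shRNA, 3441100 and 3747699 with harmine, and 1743463 and 1096387 in control cells. The control libraries were the smallest, and the second held the fewest counts. *Dyrk1a* itself, the check of the shRNA label, was at 60.2 and 61.9 CPM (counts per 1000000 counts of the library, TMM-normalised) with *Dyrk1a* shRNA, 74.8 and 77.6 CPM with harmine and 58.4 and 82.7 CPM in control cells. The shRNA libraries lay within the range of control, so that a lower *Dyrk1a* transcript was not resolved (log2 fold change -0.19, SE 0.21, edgeR adjusted p = 0.835; -0.45 without control replicate 1 and 0.069 without control replicate 2). The CD4 T cell markers with a row in the table (7 of 10) summed to 2329 to 2365 CPM with *Dyrk1a* shRNA, 2464 to 2602 CPM with harmine and 2479 to 2511 CPM in control cells. Either *Cd28* or *Lck* was the highest of them in each library.

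The family as a whole was well represented and held nearly the same total in all groups. Summed over the 8 genes, GIMAP transcripts made up 1962 and 2186 CPM with *Dyrk1a* shRNA, 2232 and 2275 CPM with harmine and 2052 and 2071 CPM in control cells. Both harmine libraries were above every other library, by less than the spread between the *Dyrk1a* shRNA replicates. As a share of all counts this was 0.191% and 0.227% with *Dyrk1a* shRNA, 0.218% and 0.230% with harmine and 0.188% and 0.224% in control cells. The 95% Wilson intervals, which cover counting error only, ran from 0.186% to 0.196% in *Dyrk1a* shRNA replicate 1 and from 0.215% to 0.233% in the smallest library, control replicate 2. The fitted change of the sum was 0.01 on the log2 scale for *Dyrk1a* shRNA against control (SE 0.26, 95% interval -0.54 to 0.56, edgeR adjusted p = 0.996), 0.13 for harmine against control (SE 0.26, interval -0.42 to 0.68, adjusted p = 0.973) and -0.12 for *Dyrk1a* shRNA against harmine (SE 0.26, interval -0.67 to 0.43, adjusted p = 0.976).

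*Gimap3* supplied about as many reads as the other members together. Its share of the family's counts, not corrected for transcript length, was 49.1% and 51.6% with *Dyrk1a* shRNA, 49.2% and 50.7% with harmine and 42.7% and 47.9% in control cells. The control values were the lowest. The 95% Wilson interval, which covers counting error only, was 41.0% to 44.4% in control replicate 1 and reached no other library's share. In control replicate 2 it was 45.9% to 49.8%, which includes the shares of *Dyrk1a* shRNA replicate 1 and harmine replicate 1. *Gimap4*, a regulator of T cell death, followed with 13.2% to 15.1% over the 6 libraries, then *Gimap6*, a partner of the autophagy protein GABARAPL2, with 8.84% to 11.9%. *Gimap8* held 2.62% to 5.54% and *Gimap5* 2.01% to 2.84%. With about as many reads in *Gimap3* as in all other members, the total says little about the small ones.

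**Figure D1:**
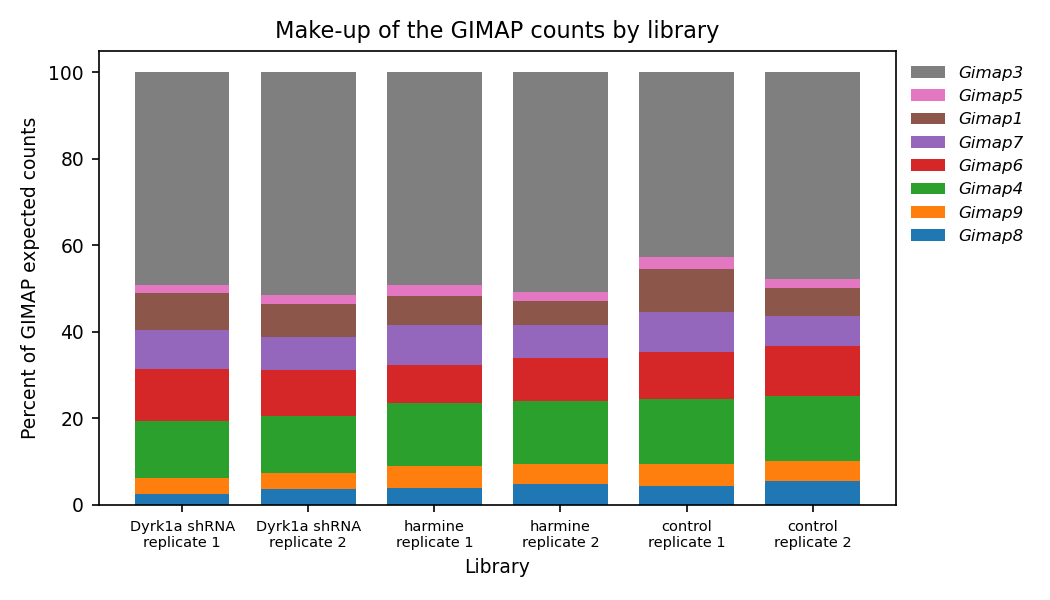
Share of the family's expected counts (%, vertical axis, from 0 to 100, not corrected for transcript length) taken by each of the 8 GIMAP genes in each of the 6 libraries, stacked, with *Dyrk1a* shRNA left, harmine in the middle and control right. The *Gimap3* segment ranges from 42.7% to 51.6% and is the largest in each library.

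*Gimap3* was also the highest member when levels were corrected for length. Levels were set per kb of the longest RefSeq-linked GENCODE transcript and averaged over the 6 libraries, as mean ± SD. *Gimap3* stood at 483 ± 50.8 CPM per kb, and its lowest library (408 CPM per kb) was above the highest of any other member at these lengths. RefSeq-linked transcripts of *Gimap4* run from 771 to 1804 bases and those of *Gimap8* from 2579 to 3160, so the level of *Gimap4* in particular, and its distance from *Gimap3*, depends on the length chosen. *Gimap4* at 169 ± 14.3, *Gimap6* at 142 ± 9.73, *Gimap7* at 139 ± 17.5 and *Gimap1* at 105 ± 18.2 CPM per kb came next, and the ranges of neighbours in this order overlapped. *Gimap9* at 68.0 ± 12.4 CPM per kb lay below the lowest value of *Gimap1* and above the highest of *Gimap8*. *Gimap8* at 28.2 ± 7.14 and *Gimap5* at 24.7 ± 3.61 CPM per kb overlapped, and *Gimap8* was the higher of these in 3 of 6 libraries. *Gimap5*, the member with the best-known role in T cell survival, was thus among the least abundant here, with the limit on its read assignment given above.

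**Figure D2:**
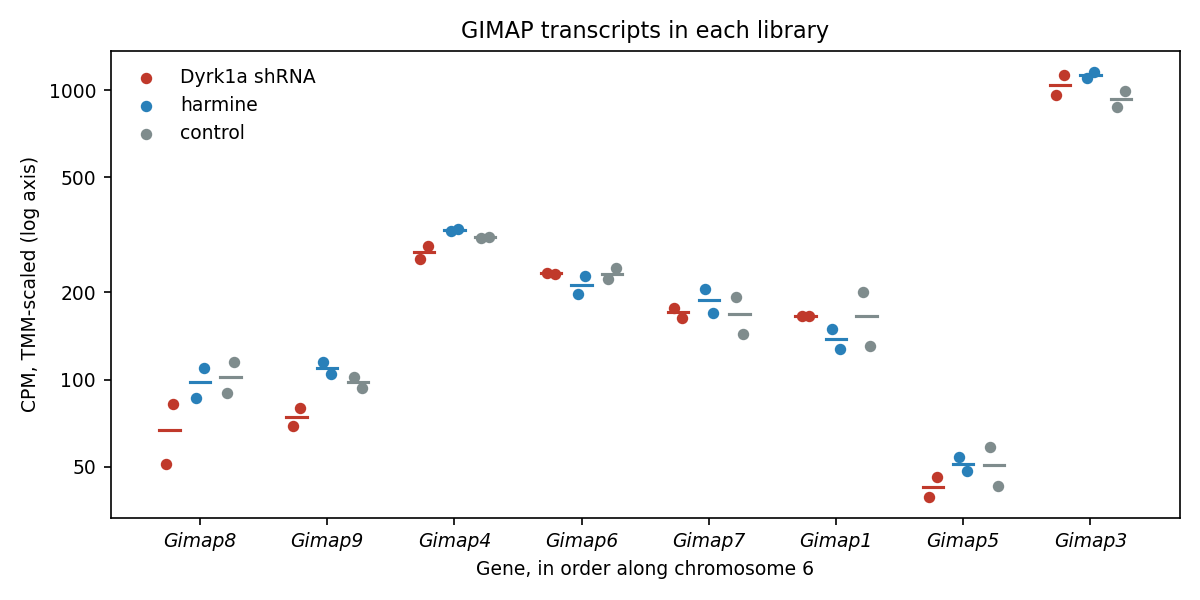
Level of each GIMAP gene (CPM, log axis) in the 6 libraries, genes in their order along chromosome 6; each point is 1 library and each bar a group mean, with *Dyrk1a* shRNA left, harmine in the middle and control right. *Gimap8* and *Gimap9* are the genes whose *Dyrk1a* shRNA points sit lowest against the other groups, and *Gimap3* is the highest gene throughout.

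*Dyrk1a* shRNA was compared with control to ask what targeting the kinase's transcript did to the family. No member passed the edgeR quasi-likelihood test at an adjusted p of 0.05 (0 of 8; 2 of 10607 genes, 0.0189%, did), and by the DESeq2 Wald test none did either. The lowest unadjusted p belonged to *Gimap8*, the largest protein of the family, which carries several GTP-binding domains in place of a single one. It was at 51.3 and 82.5 CPM with *Dyrk1a* shRNA, against 89.8 and 114.8 CPM in control cells. Both shRNA libraries were below both control libraries, although the shRNA replicates differed from each other by more than the nearest shRNA and control libraries did. The log2 fold change was -0.59 (SE 0.24, 95% interval -1.10 to -0.09), with an edgeR unadjusted p of 0.0249 and an adjusted p of 0.612. *Gimap8* was the only member at an unadjusted p under 0.05, a threshold that 7.69% of all genes tested met.

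*Gimap9*, the neighbour of *Gimap8*, was at 69.0 and 79.6 CPM with *Dyrk1a* shRNA, against 102.3 and 93.7 CPM in control cells. Its groups did not overlap, with a log2 fold change of -0.40 (SE 0.19, edgeR adjusted p = 0.645). *Gimap4*, the next gene along the cluster, was at 261.7 and 288.3 CPM with *Dyrk1a* shRNA, against 308.8 and 311.5 CPM in control cells, a smaller difference (-0.17, SE 0.18, edgeR adjusted p = 0.828). These were the 3 members whose groups did not overlap, each lower with the shRNA. Groups failed to overlap in either direction in 35.4% of all genes, close to the 3 of 8 seen here.

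In the other 5 members the groups overlapped. *Gimap5* was at 39.5 and 46.0 CPM with *Dyrk1a* shRNA, against 58.4 and 43.0 CPM in control cells (log2 fold change -0.26, SE 0.22, edgeR adjusted p = 0.778). *Gimap3* was at 963.3 and 1127.2 CPM with *Dyrk1a* shRNA, against 875.6 and 991.0 CPM in control cells (0.16, SE 0.24, adjusted p = 0.899). For both genes, the difference was smaller than the spread within a group. *Gimap1* had 166.3 and 166.6 CPM with *Dyrk1a* shRNA, against 200.9 and 130.8 CPM in control cells, the widest split between control replicates in the family (1.54-fold). *Gimap6* had 233.7 and 232.3 CPM with *Dyrk1a* shRNA, against 222.8 and 242.3 CPM in control cells. *Gimap7*, whose human counterpart stimulates GTP hydrolysis by another GIMAP protein, had 177.4 and 163.9 CPM with *Dyrk1a* shRNA, against 193.3 and 143.5 CPM in control cells. The fitted changes of *Gimap1*, *Gimap6* and *Gimap7* were between -0.0029 and 0.013 on the log2 scale. Over the 8 members the median was -0.09, with 3 above 0 and 5 below, against -0.01 over all genes tested. The sum of *Gimap3* and *Gimap5* differed by 0.15 (edgeR adjusted p = 0.906).

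Harmine was compared with control to ask the same of a compound that inhibits the kinase. No member passed the test (0 of 8; 1 of 10607 genes, 0.00943%, did), and the smallest adjusted p among them was 0.938 by edgeR. None reached an unadjusted p of 0.05 either, which 5.30% of all genes did, and none passed by DESeq2. The largest fitted change upward was that of *Gimap3*, at 1098.1 and 1154.7 CPM with harmine, against 875.6 and 991.0 CPM in control cells (0.27, SE 0.24). *Gimap9*, at 115.1 and 104.8 CPM with harmine against 102.3 and 93.7 CPM in control cells (0.16, SE 0.19), and *Gimap4*, at 324.9 and 331.9 CPM with harmine against 308.8 and 311.5 CPM in control cells (0.08, SE 0.18), were also above both control libraries. That gave 3 members of 8 with groups that did not overlap, against 32.3% of all genes.

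*Gimap1* had the largest downward value, with 149.6 and 127.5 CPM under harmine, against 200.9 and 130.8 CPM in control cells, and its groups overlapped (-0.27, SE 0.21). The sign rested on 1 control library, since the value was 0.075 without control replicate 1. *Gimap8* was at 86.4 and 109.3 CPM with harmine, against 89.8 and 114.8 CPM in control cells, and the groups overlapped (-0.05, SE 0.23). *Gimap5* (54.2 and 48.3 CPM with harmine, between the control values) had a fitted change of 0.00039, *Gimap6* (197.3 and 228.4 CPM with harmine) one of -0.13 and *Gimap7* (206.3 and 170.3 CPM with harmine) one of 0.15. The median over the members was 0.04, with 5 above 0 and 3 below, against -0.02 over all genes tested.

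The third comparison set the shRNA against the inhibitor directly, and shares its libraries with the others. No member passed (0 of 8; 1 of 10607 genes, 0.00943%, did), by edgeR or by DESeq2. *Gimap9* had the smallest p of any member in any comparison: at 69.0 and 79.6 CPM with *Dyrk1a* shRNA, against 115.1 and 104.8 CPM with harmine, its log2 fold change was -0.56 (SE 0.18, 95% interval -0.95 to -0.18), with an edgeR unadjusted p of 0.00683 and an adjusted p of 0.752. *Gimap8*, at 51.3 and 82.5 CPM with *Dyrk1a* shRNA, against 86.4 and 109.3 CPM with harmine, differed by -0.54 (SE 0.23, unadjusted p = 0.0313, adjusted p = 0.830 by edgeR). These 2 of 8 members met the unadjusted threshold, against 5.73% of all genes. Since *Gimap8* and *Gimap9* were read in the same shRNA libraries, this is not a second measurement of their lower values there.

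Groups did not overlap in 6 of 8 members in this comparison, against 41.0% of all genes. *Gimap4* (-0.26, SE 0.18), *Gimap5* (-0.26, SE 0.20), *Gimap8* and *Gimap9* were lower with *Dyrk1a* shRNA than with harmine in each pair of libraries. *Gimap1* (0.26, SE 0.20) and *Gimap6* (0.13, SE 0.18) were higher in each pair. *Gimap3* (-0.11, SE 0.24) and *Gimap7* (-0.14, SE 0.19) overlapped. The family thus had no common direction: 6 values were below 0 and 2 above, with a median of -0.20 against -0.00 over all genes tested. The 95% intervals of single members extended 0.371 to 0.509 to either side on the log2 scale over the 3 comparisons. Smaller changes of a single gene could not be told from 0 at this depth and number of libraries. These intervals are not adjusted for the number of genes tested, so larger changes could fail the adjusted test too. *Gimap9* at -0.56 and *Gimap8* at -0.54 did so in this comparison.

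**Figure D3:**
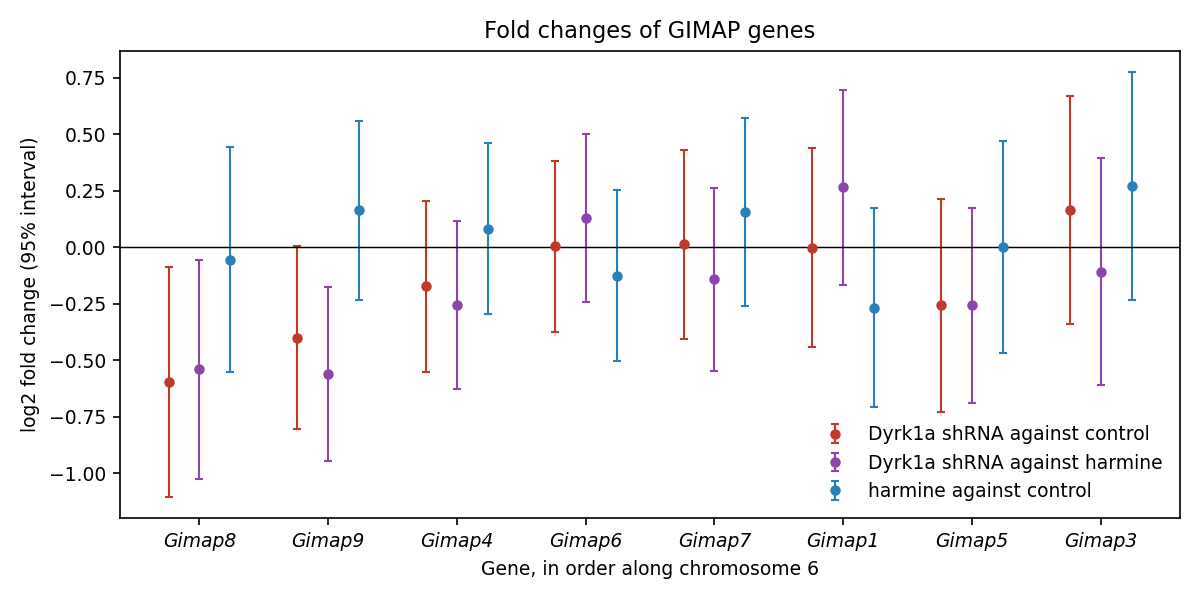
Fitted log2 fold change of each GIMAP gene with its 95% interval (edgeR, 2 libraries per group) in the 3 comparisons, genes in chromosomal order. The intervals of *Gimap8* (-1.10 to -0.09 against control) and *Gimap9* (-0.95 to -0.18 against harmine) lie below 0 before adjustment over 10607 genes; no member passes after it.

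Values of several members turned on single libraries, those of *Gimap8* among them. Against control, *Dyrk1a* shRNA gave -0.30 without shRNA replicate 1, -0.99 without shRNA replicate 2, -0.77 without control replicate 1 and -0.40 without control replicate 2. Against harmine it gave -0.25 without shRNA replicate 1 and -0.93 without shRNA replicate 2. *Gimap9* moved less, between -0.52 and -0.30 against control and between -0.67 and -0.46 against harmine. The direction of *Gimap8* and *Gimap9* held in each of these fits, and neither passed adjustment in any of them. For the shRNA against control, *Gimap5* was at -0.014 without control replicate 1 and -0.44 without control replicate 2, *Gimap3* at 0.038 without shRNA replicate 2 and *Gimap4* at -0.10 without shRNA replicate 1.

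*Gimap8*, *Gimap9* and *Gimap4* also share a property of sequence: they are the 3 members with the lowest GC content. The longest RefSeq-linked transcripts are 41.3% (*Gimap8*), 42.6% (*Gimap9*) and 43.3% (*Gimap4*) G or C, against 48.1% to 57.9% in the other 5. The trends over all genes were taken with the longest GENCODE transcript of each gene, which can be a different transcript. Over the 9999 tested genes with a GENCODE transcript, the fold change of *Dyrk1a* shRNA against control was higher at higher GC content (Spearman rho 0.332 across genes, which are not independent replicates), and that against harmine did too (rho 0.410). For harmine against control rho was -0.00350. With trends in length and GC content removed from the counts, *Gimap8* stood at -0.47 (SE 0.23, unadjusted p = 0.0584 by edgeR) for *Dyrk1a* shRNA against control, *Gimap9* at -0.07 and *Gimap4* at 0.046. *Gimap7*, at 48.1% GC, moved upward as well, to 0.25, and so did *Gimap5*, at 50.3% GC, from -0.26 to -0.19. *Gimap6*, also at 48.1% GC, went from 0.0040 to -0.0070, and *Gimap1* and *Gimap3* moved downward too. Against harmine, the values so obtained were -0.35 for *Gimap8*, -0.30 for *Gimap9* and -0.05 for *Gimap4*. Against control, the *Gimap9* and *Gimap4* values thus lay near 0 without the trends, and that of *Gimap8* did not. The labels give both libraries of a group the same i5 index, different from the other groups, so an effect of library preparation cannot be told apart from that of the shRNA.

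**Figure D4:**
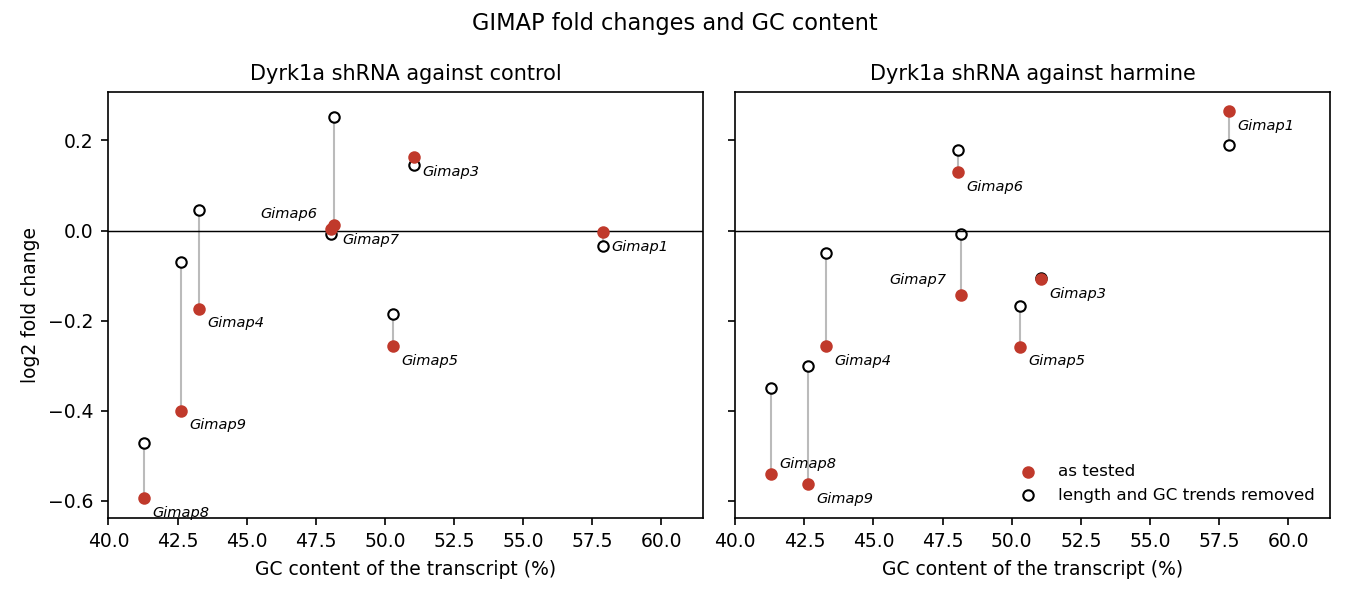
Log2 fold change of each GIMAP gene (vertical axis) against the GC content of its longest RefSeq-linked transcript (%, horizontal axis). The left panel is *Dyrk1a* shRNA against control and the right panel *Dyrk1a* shRNA against harmine. Filled points are the values as tested, open points those with length and GC trends removed, joined by a line for each gene. The 3 genes at 41.3% to 43.3% GC move upward when the trends are removed, *Gimap9* from -0.40 to -0.07 in the left panel. So do *Gimap7* at 48.1% GC, from 0.013 to 0.25, and *Gimap5* at 50.3% GC, from -0.26 to -0.19. *Gimap1*, *Gimap3* and *Gimap6* move downward in the left panel, and only *Gimap1* does in the right panel. The trends were taken with the longest GENCODE transcript of each gene, which can differ from the one plotted.

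The starts of all 8 members were searched for short motifs of factor families active in T cells. Those of these 3 genes are printed because their shRNA libraries all lay below control. That choice was made from these data, and a link between the motifs and the fold changes was not tested. The 250 bases before the RefSeq start (GRCm38.p6, plus strand) are shown for each, with capitals marking every match on either strand to AGGAAG (ETS), TGTGGT (RUNX), TGTTTAC (FOXO), TGGAAA (NFAT) or CACCC (KLF). *Gimap8*, which has a pair of annotated starts, is shown for the upstream one (chr6:48646984-48647233), *Gimap9* at chr6:48675885-48676134 and *Gimap4* at chr6:48684328-48684577.
Gimap8: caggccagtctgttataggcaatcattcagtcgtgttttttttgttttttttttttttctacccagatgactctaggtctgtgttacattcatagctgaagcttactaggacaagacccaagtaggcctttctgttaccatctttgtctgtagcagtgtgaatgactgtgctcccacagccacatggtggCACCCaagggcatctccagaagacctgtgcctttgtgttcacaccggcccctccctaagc
Gimap9: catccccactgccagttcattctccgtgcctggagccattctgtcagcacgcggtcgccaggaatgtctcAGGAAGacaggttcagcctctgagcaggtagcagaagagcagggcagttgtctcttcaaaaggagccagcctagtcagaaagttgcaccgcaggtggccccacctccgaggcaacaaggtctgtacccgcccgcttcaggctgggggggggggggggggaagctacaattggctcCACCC
Gimap4: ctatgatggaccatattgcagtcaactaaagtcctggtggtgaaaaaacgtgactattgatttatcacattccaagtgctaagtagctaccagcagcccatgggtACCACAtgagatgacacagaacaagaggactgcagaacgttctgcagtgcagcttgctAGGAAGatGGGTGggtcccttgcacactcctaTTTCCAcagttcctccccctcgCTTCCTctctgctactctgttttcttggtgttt
Over the 300-base windows of the family, which reach 50 bases past the start and number 9 for the 8 genes, AGGAAG occurred in 7, against 35.4% of 32851 mouse promoter windows. TGGAAA occurred in 5 of 9 (*Gimap1*, *Gimap3*, *Gimap4*, *Gimap5* and one of the *Gimap8* windows), against 21.4% of all windows. The *Gimap8* matches to AGGAAG and TGGAAA lie in the window of its downstream start, which is not printed here. TGTGGT occurred in 3 (16.8% of all windows), TGTTTAC in 1 (3.65%) and CACCC in 6 (57.5%). The windows of *Gimap8* overlap and share a CACCC match. These are matches of letters, not shown to be bound.

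No gene flanking the cluster passed the test. Beside *Gimap8* lie *AI854703*, *Zfp775* and *Repin1*. *Zfp775*, a zinc finger gene, was at 18.4 and 11.2 CPM with *Dyrk1a* shRNA, 10.4 and 6.87 CPM with harmine and 7.53 and 5.91 CPM in control cells, the opposite direction from *Gimap8* (*Dyrk1a* shRNA against control 1.09, SE 0.43, edgeR adjusted p = 0.612). *Repin1* (0.0038), *AI854703* (-0.10, SE 0.70) and, on the other side, *Tmem176b* (0.02) overlapped between the groups. *Tmem176a* also overlapped, with a fitted value close to that of *Gimap9* (-0.42, SE 0.38; -0.12 without control replicate 2). *Zfp775* was at 0.72 without shRNA replicate 1. *1600015I10Rik* had 0 counts in all libraries, which allows up to 2.53 CPM in the smallest.

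Lists of genes that describe the state of T cells, act with the family or encode other GTPases were examined. None of their members passed adjustment in any comparison. Of 20 genes of naive and quiescent T cells, 14 were below 0 and 6 above for *Dyrk1a* shRNA against control (median -0.05, against -0.01 over all genes). The smallest p in that list was that of *Il7r*, the IL-7 receptor chain that carries a survival signal (-0.74, SE 0.23, adjusted p = 0.612), while *Klf2*, a transcription factor of quiescence, was at -0.43 (SE 0.18, adjusted p = 0.831 by edgeR) against harmine. Of 18 activation and growth genes, 14 were below 0 against control, among them the costimulatory receptor *Icos* (-0.55, SE 0.20, adjusted p = 0.612), while against harmine 13 were below 0 and 5 above (median -0.09), the amino acid transporter gene *Slc7a5* being among those above at 0.52 (SE 0.21). For harmine against control 12 were above 0 and 6 below (median 0.10). *Egr1*, an early response gene among those below, was at -1.55 (SE 0.58, adjusted p = 0.903 by edgeR) for harmine against control, and passed at -2.19 (adjusted p = 0.0138) without control replicate 2, with 0.040 without control replicate 1.

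The BCL2 family, partners of Gimap3 and Gimap5 in the mitochondrial control of cell death, had 15 of 16 genes tested. Its median was -0.01 for *Dyrk1a* shRNA against control, -0.15 for harmine against control and 0.09 for *Dyrk1a* shRNA against harmine. The pro-survival gene *Bcl2l1* was above 0 for the shRNA against harmine (0.53, SE 0.23, and 0.33 without shRNA replicate 2). It was at 28.0 and 35.7 CPM with *Dyrk1a* shRNA, 20.0 and 24.3 CPM with harmine and 29.5 and 35.5 CPM in control cells. The pro-death gene *Bmf* was also above 0 there (0.86, SE 0.40), with low levels in all groups. It was at 11.1 and 10.3 CPM with the shRNA and 5.37 and 6.34 CPM with harmine. Its control libraries, at 3.77 and 12.7 CPM, spanned these values. The pro-death gene *Pmaip1* was at -0.77 for harmine against control (SE 0.30, with -0.28 without control replicate 2 and -1.20 without control replicate 1). Of 10 genes of the ATG8 family, to which Gimap6 binds, and of autophagy, 4 were above 0 and 6 below for the shRNA against harmine, with a median of -0.08. *Gabarapl1* was at 0.66 (SE 0.20, edgeR adjusted p = 0.708) and *Sqstm1* at 0.43 (SE 0.20; 0.16 without shRNA replicate 1) in that comparison, and *Gabarapl2*, the best-known Gimap6 partner, at -0.37 (SE 0.19; -0.17 with length and GC trends removed) for the shRNA against control. Another list held GSK3, lysosome and trafficking partners, chosen because Gimap5 acts at lysosomes and on GSK3 in T cells. Of its 9 genes tested, 7 were above 0 for *Dyrk1a* shRNA against control (median 0.28) and 7 for harmine against control (median 0.14). For the shRNA against harmine 5 were above 0 and 4 below (median 0.02). Over all genes 48.3%, 47.5% and 49.9% were above 0 in these comparisons, which share libraries. *Gsk3a* stood at 0.47 for the shRNA against control (SE 0.19, edgeR adjusted p = 0.612), and at 0.26 with the trends removed. *Ctsd* was at 0.38 for the shRNA against harmine (SE 0.19, and 0.20 without shRNA replicate 1) and *Lamp1* at 0.31 (SE 0.18) for harmine against control. Of 15 other GTPase genes linked to interferon or lymphocytes, 9 were below 0 for the shRNA against control (median -0.18). For harmine against control 9 were below 0 as well (median -0.14). *Arhgdib* was at -0.35 for the shRNA against control (SE 0.18, and -0.16 with the trends removed). *Gbp7* was at -0.59 for the shRNA against harmine (SE 0.24, and -0.36 without shRNA replicate 1) and *Irgm2* at -0.71 (SE 0.26) for harmine against control.

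Markers of other cells that use GIMAP genes or could accompany the T cells were low. CD8 T and NK cell markers (8 of 8 with a row in the table) summed to 24.5 to 28.6 CPM with *Dyrk1a* shRNA, 25.6 to 27.2 CPM with harmine and 18.6 to 31.4 CPM in control cells, with *Gzmk* and *Klra8* at 0 throughout, and *Cd8b1* led the sum. B cell markers (8 of 8) summed to 36.8 to 40.4 CPM with *Dyrk1a* shRNA, 28.6 to 34.6 CPM with harmine and 35.2 to 36.3 CPM in control cells. Myeloid markers (8 of 9) summed to 18.3 to 30.7 CPM with *Dyrk1a* shRNA, 21.4 to 28.9 CPM with harmine and 24.5 to 41.4 CPM in control cells. Erythroid and platelet markers (6 of 8) summed to 12.6 to 15.6 CPM with *Dyrk1a* shRNA, 10.3 to 11.0 CPM with harmine and 15.2 to 30.1 CPM in control cells, with *Hba-a2* at 0. The highest value of both sums was that of control replicate 1, the library with the highest *Gimap1*. Endothelial markers (8 of 8) summed to 55.6 to 60.4 CPM with *Dyrk1a* shRNA, 51.2 to 52.8 CPM with harmine and 53.4 to 64.2 CPM in control cells, led by *Pecam1*, which T cells also express, with *Cdh5*, *Tek*, *Emcn* and *Plvap* at 0 in each library. No marker list had a member that passed in any comparison. Their part in the GIMAP values was not tested, and in RNA of whole cultures fewer cells of a type and less RNA per cell cannot be told apart.

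Among the genes whose level over the 6 libraries most resembled the family sum were *Kbtbd11* (Pearson r = 0.960 of log2 CPM, given as a description), *Irf2bp2* (0.956), *Mapk9*, which encodes the kinase JNK2 (0.955), and *Aida* (0.952), among 6632 genes with a mean of at least 20 CPM. As 27 genes exceeded 0.9 and all values come from the same 6 libraries, this ranking is not specific to the family. *Kbtbd11* ran from 157.9 to 239.7 CPM within the *Dyrk1a* shRNA pair alone, a wider relative range than the family's 1962 to 2186 CPM.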

How the data were processed

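RNAseq of polyadenylated RNA was performed on 6 libraries. The authors aligned reads to mm10 with TopHat2 2.0.13, and the deposited expected counts per gene were made by the authors with RSEM, without normalization. The RSEM version and annotation release are not given in the sources used here. Expected counts were rounded for testing. A single table held all 6 samples and no other sample columns. Genes were filtered with edgeR 4.0.16 filterByExpr (minimum count 10), scaled by TMM and tested with the quasi-likelihood test (robust, all 6 libraries, 3 group means, Benjamini-Hochberg adjustment over 10607 genes, two-sided) in R 4.3.3. CPM used the same scaling. The test was also run on counts simulated from the mean levels and fitted spreads of these data. That run cannot show whether the model suits these libraries, and its outcome is not reported here. DESeq2 1.42.0 and other scalings, filters, left-out libraries and a length and GC correction were alternatives, and the sum of *Gimap3* and *Gimap5* was added after seeing the data. Length and GC content were available for 9999 of the tested genes (94.3%).

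The members and gene lists were chosen with earlier results of these data known. Besides the members, the text names *Dyrk1a*, the 3 nearest protein-coding genes on each side of the cluster and the 5 genes most like the family sum. It also names up to 3 genes a list, by smallest unadjusted p over the 3 comparisons. Each such gene is given for the comparison in which that p fell, so its value was selected over genes and comparisons. Some genes that this rule names are not reported here. Promoter windows are from RefSeq (GRCm38.p6), with all 8 members matched.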

Additional observations from a re-analysis of the deposited data

How the results depend on the processing

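No GIMAP gene passed an adjusted p of 0.05 in any of 336 fits of a member under an alternative (smallest adjusted p 0.158); 310 kept their sign and 26 did not, the largest of these at 0.34. The number of genes passing in the whole table was small and unstable. For *Dyrk1a* shRNA against control it was 2, and 28 with no filter on low counts, 5 with the compared groups fitted alone and 1 to 439 with 1 library left out. For harmine against control it was 1, and 2 by the DESeq2 Wald test, 20 with no filter, 0 with a minimum count of 50, 0 with the groups alone and 1 to 291 with 1 library left out. The 439 and the 291 were both without control replicate 2, the smallest library. For *Dyrk1a* shRNA against harmine it was 1, and 3 with library size scaling, 2 by DESeq2, 22 with no filter, 4 with the groups alone, 0 with length and GC trends removed and 0 to 5 with 1 library left out. The causes of these differences were not tested.

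The labels do not say whether libraries of the same replicate number belong together. Correlations of replicate differences were 0.120 for harmine and control, 0.0196 for *Dyrk1a* shRNA and control and 0.240 for *Dyrk1a* shRNA and harmine. With the replicate number as a block, 2 genes passed for *Dyrk1a* shRNA against control, 0 for harmine against control (721 at an unadjusted p under 0.05) and 0 for *Dyrk1a* shRNA against harmine (863 at an unadjusted p under 0.05), and *Gimap1* for the shRNA against control was at 0.025.

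For *Dyrk1a* shRNA against control, *Gimap1* was at 0.036 with library size scaling and 0.016 with no filter; *Gimap6* at -0.0019 with DESeq2 size factors, -0.0065 with a minimum count of 50, -0.0070 with the groups alone and -0.0070 with trends removed; *Repin1* at -0.0020, -0.0071, -0.0063 and -0.25 in the same order; *Gimap4* at 0.046 with trends removed; and the family sum at -0.0011 with a minimum count of 50 and -0.0016 with the groups alone. For harmine against control, *Gimap5* was at -0.0063 with DESeq2 size factors, -0.0056 with a minimum count of 50 and -0.018 with trends removed. Leaving out 1 library gave, for the shRNA against control, -0.27 to 0.34 for *Gimap1*, -0.065 to 0.068 for *Gimap6*, -0.18 to 0.24 for *Gimap7*, -0.078 to 0.087 for the family sum, -0.45 to 0.069 for *Dyrk1a*, -0.50 to 0.27 for *AI854703*, -0.11 to 0.092 for *Repin1* and -0.16 to 0.19 for *Tmem176b*. For harmine against control it gave -0.54 to 0.075 for *Gimap1*, -0.19 to 0.24 for *Gimap5*, -0.038 to 0.38 for *Gimap7*, -0.24 to 0.13 for *Gimap8*, -0.12 to 0.39 for *Dyrk1a* and -2.19 to 0.040 for *Egr1*. For the shRNA against harmine it gave -0.23 to 0.0020 for *Gimap3* and -0.27 to 0.0035 for *Gimap7*. A lone library was assumed to vary like the other groups.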
